A study of Mus musculus with 30 samples.

Results

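The fragments described here come from 3 mitochondrial tRNAs of the mouse, mt-Te (tRNA-Glu), mt-Tt (tRNA-Thr) and mt-Tp (tRNA-Pro), whose genes lie around mt-Cytb, the gene of cytochrome b. A read was counted as a fragment when its whole sequence equalled a stretch of the sense strand of 1 of these tRNAs with the CCA tail added. They are 3 of the 22 mitochondrial tRNAs and of 3716 reference RNAs with at least 1 read. The libraries were made from the cortex of 6-month-old C57BL/6J mice, either wild-type (WT) littermates or hemizygous 5XFAD mice, the Alzheimer's disease (AD) model. 5xFAD mice carry transgenes for mutated human amyloid precursor protein and presenilin, driven by the neuronal Thy1 promoter, and both sexes were included. RNA of 15–50 nt was cut from a gel and sequenced by traditional-seq, with no enzyme treatment (7 WT and 7 AD libraries), or by PANDORA-seq, after T4PNK and then AlkB (8 WT and 8 AD libraries). T4PNK makes damaged or cyclic RNA ends open to adapter ligation, and AlkB removes methyl groups that stop reverse transcriptase. The labels do not say whether the protocols used the same mice.

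PANDORA-seq libraries held 54926347–105876141 reads of 15–45 nt and traditional-seq libraries 9370669–17053412 reads of 15–42 nt. Reads of 43–45 nt, which only PANDORA-seq libraries held, were 11.2–21.5% of all reads in the WT group and 2.13–10.7% in the AD group, so the groups did not overlap in this share, and fragments of 15–40 nt and of 43–45 nt are given apart. This share moved with the genotype beside each value of 43–45 nt given below, and its part in them was not tested. Summed miRNA hairpins typical of neurons had median levels of 4297 reads per 1000000 reads of the library (RPM) in PANDORA-seq WT and 3818 RPM in PANDORA-seq AD libraries, and of 136266 and 125175 RPM in traditional-seq WT and AD libraries. Of the other marker lists of cell types, the summed hairpins of immune cells had medians of 8.78 and 13.3 RPM in PANDORA-seq WT and AD libraries and 101 and 150 RPM in traditional-seq, and those of oligodendrocytes 62.1 and 65.4 RPM and 506 and 858 RPM. Red blood cell hairpins had medians of 11.3 and 12.5 RPM in PANDORA-seq and 203.7 and 144 RPM in traditional-seq, and the endothelial hairpin 12.5 and 13.6 RPM and 5218 and 4272 RPM. For every list the WT and AD ranges overlapped in both protocols, and the part of these lists in the values below was not tested. The hairpin of miR-122, a liver miRNA that cortex should lack, was at 43.2–258 RPM in PANDORA-seq libraries and 13.6–755 RPM in traditional-seq libraries.

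Mitochondrial tRNAs are cut out of long transcripts of both strands of the mitochondrial genome, receive their CCA tail after cutting, and carry amino acids to the mitochondrial ribosome. Those transcripts also hold the mRNAs of the respiratory chain, and a tRNA often marks the place where an mRNA is cut free. Fragments of tRNAs (tsRNAs) are named by the end they keep: a 5′ fragment starts at the first base, a 3′ fragment ends at the last encoded base or in the CCA tail, and an internal fragment keeps neither. The anticodon loop of mt-tRNA-Thr carries a methylated C (m3C) before the anticodon, mt-tRNA-Pro a methylated G (m1G) after it, and mt-tRNA-Glu a taurine-containing base in it.

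The full tRNAs are printed here because every fragment position below refers to them, from 1 at the 5′ end. In capitals are the anticodon, at positions 31–33 of each tRNA, and the CCA tail, which the genome does not encode. Sequence and coordinates are those of GENCODE vM21 on GRCm38. mt-Te (ENSMUSG00000064369.1) is at chrM:14071-14139 on the minus strand, next to mt-Nd6 on one side and mt-Cytb on the other. mt-Tt (ENSMUSG00000064371.1) is at chrM:15289-15355 on the plus strand and follows mt-Cytb directly. mt-Tp (ENSMUSG00000064372.1) is at chrM:15356-15422 on the minus strand.
mt-Te: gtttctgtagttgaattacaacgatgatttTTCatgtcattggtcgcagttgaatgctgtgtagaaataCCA
mt-Tt: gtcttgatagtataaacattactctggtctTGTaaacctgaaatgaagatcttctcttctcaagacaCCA
mt-Tp: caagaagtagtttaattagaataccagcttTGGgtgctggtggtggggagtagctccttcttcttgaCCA

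The most abundant fragments of each tRNA differed between the protocols, and they are printed because the comparison of fragment types turns on them. For mt-Te, the 3′ fragment of positions 34–71 led in PANDORA-seq and the internal fragment of positions 40–59 in traditional-seq. For mt-Tt, the leading sequences were the 3′ fragment of positions 30–69 and the internal fragment of positions 38–54. For mt-Tp, both were 3′ fragments, of positions 35–68 and 49–70. Capitals again mark the anticodon and tail bases.
mt-Te 34–71: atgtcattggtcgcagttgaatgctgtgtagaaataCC
mt-Te 40–59: ttggtcgcagttgaatgctg
mt-Tt 30–69: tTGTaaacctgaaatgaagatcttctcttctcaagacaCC
mt-Tt 38–54: ctgaaatgaagatcttc
mt-Tp 35–68: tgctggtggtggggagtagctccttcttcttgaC
mt-Tp 49–70: agtagctccttcttcttgaCCA

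In all, PANDORA-seq gave 2816022 reads of mt-Te in 869 distinct sequences, 88071 of mt-Tt in 834 and 394896 of mt-Tp in 894. Traditional-seq gave 209598 reads of mt-Te in 566 distinct sequences, 12153 of mt-Tt in 412 and 9866 of mt-Tp in 335. Between 0.0661% and 8.20% of a tRNA's reads in a protocol, in sequences of at most 25 nt, were also found in another transcript of the annotation. Nuclear copies of the mitochondrial genome were not searched. Per nt of tRNA length and over all read lengths, mt-Te was highest in PANDORA-seq, with 6.47–77.1 RPM per nt (mean 28.9), and ranked 2 among the 22 mitochondrial tRNAs. mt-Tp followed with 2.50–14.4 RPM per nt (mean 4.48, rank 6) and overlapped with mt-Te, and mt-Tt stood below both with 0.375–1.46 RPM per nt (mean 0.942, rank 11). In traditional-seq, mt-Te had 7.54–25.9 RPM per nt (mean 17.4, rank 7), and mt-Tt (0.522–1.58, mean 1.06, rank 16) and mt-Tp (0.425–1.44, mean 0.846, rank 17) overlapped with each other.

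Among the 3 tRNAs, only mt-Tp had levels at 15–40 nt that did not overlap between the protocols. Its fragments of 15–40 nt were at 171–882 RPM (median 234) in the 16 PANDORA-seq libraries and at 29.8–100.2 RPM (median 56.5) in the 14 traditional-seq libraries. No library of one protocol reached the other, and the mean ratio was 4.93 (291 ± 174 against 59.1 ± 23.02 RPM, SD; two-sided permutation test with 100000 shuffles, p = 1e-05, which is the lowest possible; with 128 measures adjusted p = 1.35e-05). mt-Te was at 457–4946 RPM (median 1341) in PANDORA-seq and at 542–1865 RPM (median 1314) in traditional-seq, and this difference of means did not pass (ratio 1.49, permutation test, adjusted p = 0.113). mt-Tt went the other way, with 24.8–85.7 RPM (median 48.5) in PANDORA-seq and 36.5–111 RPM (median 74.4) in traditional-seq (ratio 0.698, permutation test, adjusted p = 0.0120). The mt-Tt difference was lost within the AD libraries (permutation test, adjusted p = 0.402) and as RPM of the reads of 15–40 nt (adjusted p = 0.170), and that for mt-Te passed on the latter scale (difference 1012 RPM, adjusted p = 0.0332). Of the 22 mitochondrial tRNAs, 18.2% were higher and 68.2% lower in PANDORA-seq by this test. How many of the 22 lacked overlap between the protocols is not given here. RPM counts all reads of a library, and the protocols differed in how many of these matched a reference RNA. In PANDORA-seq, 9.42–16.4% of reads matched in WT and 6.60–16.3% in AD libraries, and in traditional-seq 43.2–56.5% and 41.9–56.3%. The part of this in the differences between protocols was not tested.

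**Figure D1:**
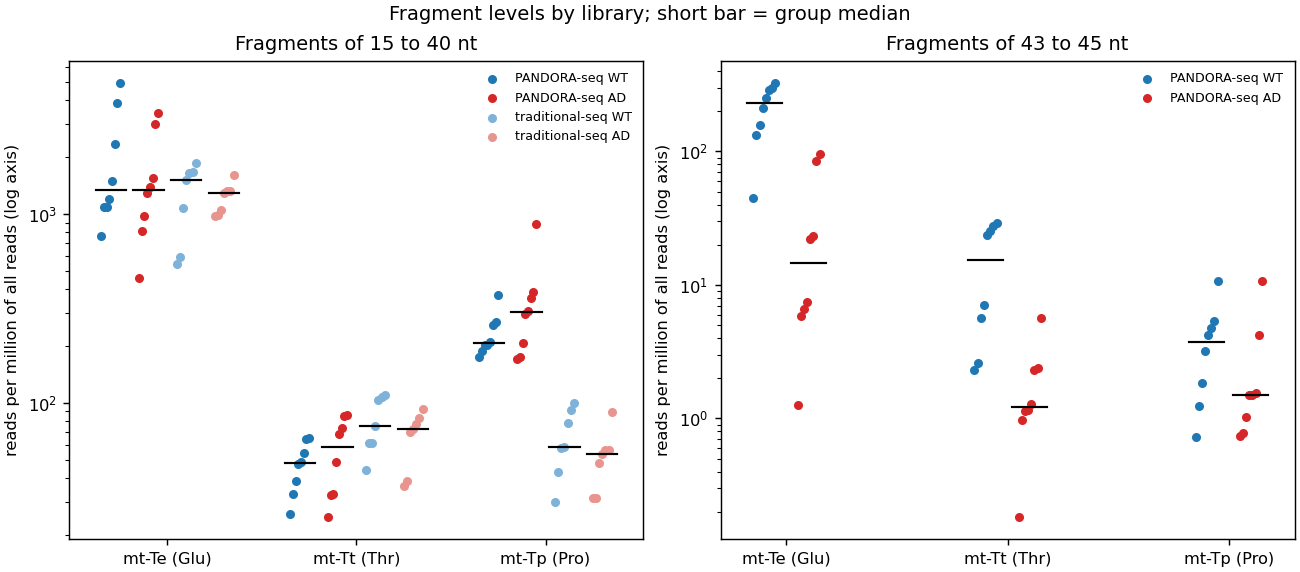
Levels of fragments of 15–40 nt (left) and 43–45 nt (right) in RPM, on a log axis, with 1 point per library and a short bar at the group median. mt-Tp at 15–40 nt lies at 171–882 RPM in PANDORA-seq and 29.8–100.2 RPM in traditional-seq, and at 43–45 nt the AD libraries lie mostly below the WT libraries for mt-Te and mt-Tt but not for mt-Tp.

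Fragments of mt-Te were mostly 3′ fragments in PANDORA-seq and internal pieces in traditional-seq. Of its reads of 15–40 nt, 43.6–84.6% (median 66.3%) were 3′ fragments in PANDORA-seq libraries and 14.6–34.9% (median 18.9%) in traditional-seq libraries, with no overlap (65.3% ± 14.3 against 20.9% ± 5.96, SD, n = 16 and 14; permutation test, adjusted p = 1.35e-05). Internal fragments made up 28.3% ± 11.2 against 78.5% ± 6.15 (permutation test, adjusted p = 1.35e-05). In PANDORA-seq WT libraries, 37.0% of these reads started at position 34, the first base after the anticodon, 28.1% at position 33, its last base, and 60.0% ended at position 71, the second C of the tail. In traditional-seq WT libraries, 29.1% started at position 50 and 20.7% at position 40, and 24.4% ended at position 59. Shares of starts, ends and single fragments, here and below, are of the summed RPM of a group or protocol, so libraries with high levels weigh more. The 3′ fragment 34–71 alone took 23.96% of mt-Te reads of 15–40 nt in PANDORA-seq, at 84.0–1399 RPM in WT (median 335) and 69.7–957 RPM in AD libraries (median 275). The internal fragment 40–59 took 10.9% in traditional-seq, at 38.5–244 RPM in WT (median 199) and 67.1–221 RPM in AD libraries (median 97.2).

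The 3′ share of mt-Tt was also higher in PANDORA-seq, where its 3′ and internal fragments had similar shares and the commonest start kept the anticodon. The 3′ share was 27.7–68.7% (mean 44.4% ± 11.4) in PANDORA-seq and 5.41–26.8% (mean 11.1% ± 6.17) in traditional-seq libraries (permutation test, adjusted p = 1.35e-05). The internal share was 44.2% ± 9.62 against 87.9% ± 6.27 (permutation test, adjusted p = 1.35e-05). The commonest start in PANDORA-seq was position 30, the base just before the anticodon, with 34.2% of reads in WT and 29.9% in AD libraries, and the commonest end was position 69, with 36.6% and 37.8%. Accordingly 63.3–92.5% of mt-Tt reads covered the first anticodon base in PANDORA-seq and 26.7–72.1% in traditional-seq (means 79.1% and 45.5%, permutation test, adjusted p = 1.35e-05). The 3′ fragment 30–69 was at 4.63–14.5 RPM in WT and 5.15–17.7 RPM in AD libraries of PANDORA-seq, which is 19.9% of mt-Tt reads of 15–40 nt there. The internal fragment 38–54 was at 1.16–9.98 RPM in WT and 1.03–6.96 RPM in AD libraries of traditional-seq.

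mt-Tp differed from the other two in the direction of its 3′ share, which was lower in PANDORA-seq. It was 27.9–66.0% (mean 47.3% ± 11.8) there and 52.4–88.4% (mean 67.8% ± 10.2) in traditional-seq (permutation test, adjusted p = 3.84e-05). Its internal share was 51.2% ± 11.96 against 31.7% ± 10.1 (permutation test, adjusted p = 9.75e-05). In traditional-seq WT libraries, 25.3% of mt-Tp reads started at position 49 and 40.7% ended at position 70, the A of the tail, so that the 22-nt fragment 49–70 took 15.4% of reads of 15–40 nt, at 5.10–24.9 RPM in WT and 4.05–10.4 RPM in AD libraries. PANDORA-seq reads were spread more widely, with 22.3% starting at position 35 in WT libraries and the top 3′ fragment 35–68 taking 5.94%, at 12.3–25.2 RPM in WT and 5.61–28.1 RPM in AD libraries. Reads over the first anticodon base made up 12.3–55.6% (mean 31.4%) in PANDORA-seq and 0.694–5.76% (mean 3.35%) in traditional-seq, without overlap (permutation test, adjusted p = 1.35e-05). For mt-Te the same share was 14.3% ± 8.66 against 2.89% ± 1.55 (permutation test, adjusted p = 2.59e-05).

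5′ fragments were the rarest type of all 3 tRNAs and had higher shares in PANDORA-seq. The means were 6.38% against 0.589% for mt-Te, 11.4% against 1.02% for mt-Tt and 1.41% against 0.453% for mt-Tp (permutation tests, adjusted p = 1.35e-05, 1.35e-05 and 9.75e-05). The most abundant of them in PANDORA-seq were mt-Te 1–16 (mean 19.7 RPM), mt-Tt 1–39 (1.17 RPM) and mt-Tp 1–40 (2.32 RPM). The same comparisons over the 22 mitochondrial tRNAs gave a higher 5′ share in PANDORA-seq for 86.4%, a higher 3′ share for 50.0% and a lower one for 27.3%, a lower internal share for 77.3% and a higher one for 9.09%. Of the 19 tRNAs whose anticodon was located in the sequence here, 63.2% had a higher share over it in PANDORA-seq and 36.8% a lower one. All directions given for shares of the 3 tRNAs also passed within the WT and within the AD libraries (permutation tests within genotype).

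**Figure D2:**
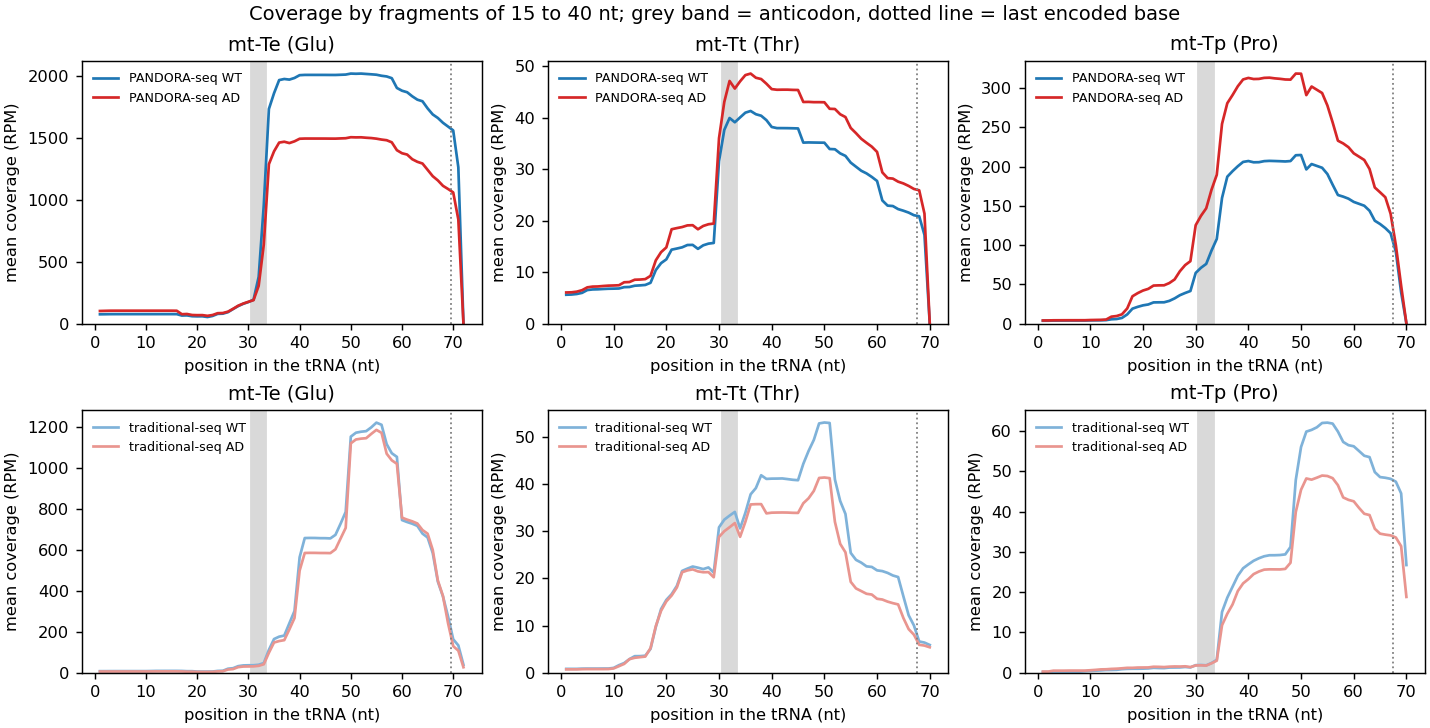
Mean coverage in RPM by position along each tRNA for fragments of 15–40 nt, PANDORA-seq above and traditional-seq below, with WT and AD groups as lines, the anticodon as a grey band and the last encoded base as a dotted line. PANDORA-seq coverage rises around the anticodon, where 37.0% of mt-Te reads started at position 34 and 34.2% of mt-Tt reads at position 30 in WT libraries, and traditional-seq coverage of mt-Te and mt-Tp peaks further towards the 3′ end.

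The tail at the end of 3′ fragments also differed between the protocols. The full CCA, the tail of a mature tRNA, was on 40–85.3% of mt-Tt 3′ reads and 43.1–68.6% of mt-Tp 3′ reads in traditional-seq, and on 1.64–35.98% of those of mt-Te. In PANDORA-seq the same share was 0.0789–0.409% for mt-Te, 0.0385–0.590% for mt-Tt and 0.0763–0.367% for mt-Tp, below every traditional-seq library (permutation tests, adjusted p = 1.35e-05 each). There, 76.4% of mt-Te and 81.3% of mt-Tt 3′ reads ended in CC, and mt-Tp 3′ reads were divided between 41.3% with C, 35.5% with CC and 23.02% with no tail base. The traditional-seq shares rest on few reads for mt-Tt, with 25–232 3′ reads per library. The share of full CCA was lower in PANDORA-seq for 100% of the 21 mitochondrial tRNAs tested. Among all reads, 8.64% ended in A in PANDORA-seq and 15.6% in traditional-seq, but among reads matched to a reference RNA the order was opposite, with 10.3% and 6.56%. The part of the last read base in these tails was not tested.

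**Figure D3:**
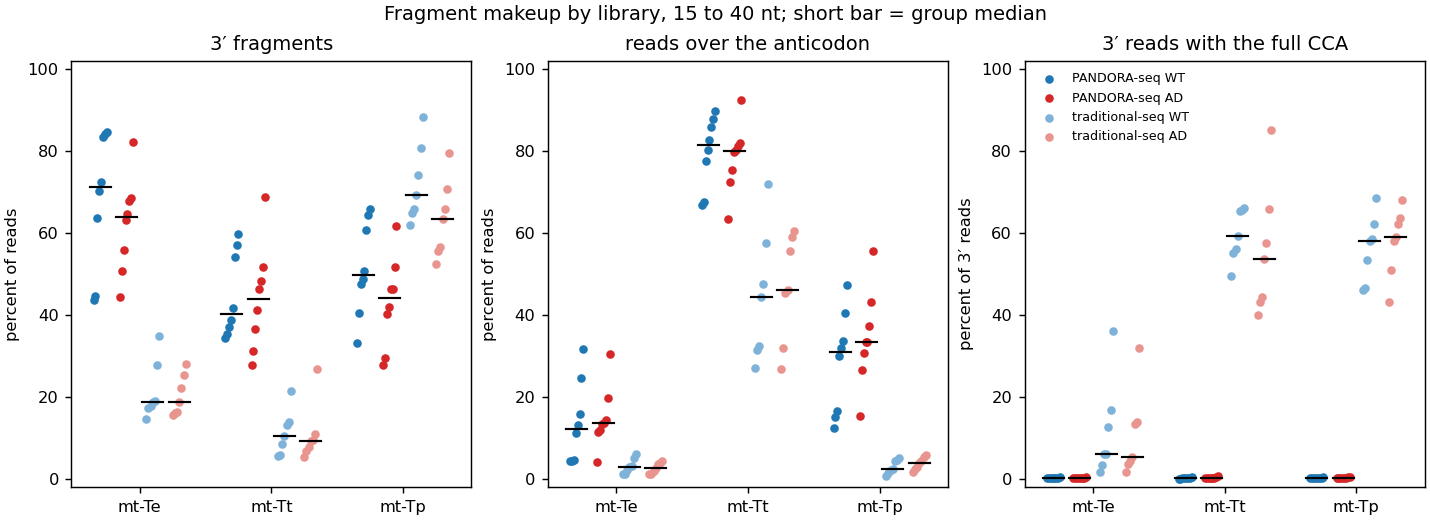
Fragment makeup by library at 15–40 nt, in percent: share of 3′ fragments (left), of reads over the first anticodon base (middle) and of 3′ reads with the full CCA tail (right), with 1 point per library and a short bar at the group median. Each 3′ share of PANDORA-seq lies above traditional-seq for mt-Te and mt-Tt, and every PANDORA-seq library is below 1% of full CCA.

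Reads with exactly 1 mismatch were examined at positions where mitochondrial tRNAs often carry modified bases, since reverse transcriptase can misread these. mt-Tt position 29 is the C before the loop base that precedes the anticodon, and the place of m3C. Of covering reads of 20–40 nt, 8.84–31.0% had a mismatch there in PANDORA-seq libraries and 8.87–58.2% in traditional-seq libraries. The source of these mismatches was not tested. The groups overlapped, and the mean of 18.1% ± 6.19 (SD, n = 16) in PANDORA-seq was below that of 33.6% ± 13.8 (SD, n = 14) in traditional-seq (two-sided permutation test, adjusted p = 0.00109 over 51 sites). Within the AD libraries the difference was -18.8 percentage points (permutation test, adjusted p = 0.0118), and within WT it was -12.2 and did not pass (adjusted p = 0.148). The commonest change was C29T in both protocols, with 68.2% of mismatched reads in PANDORA-seq and 92.2% in traditional-seq. At least 611 reads covered the position in each PANDORA-seq library and at least 80 in each traditional-seq library. Of the 51 sites tested in mitochondrial tRNAs, 27.5% had a lower mismatch share in PANDORA-seq and 11.8% a higher one. Left out were tRNAs whose anticodon was not located here and sites with fewer than 20 covering reads in some library.

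The anticodon region of the other two tRNAs gave smaller values. At the first anticodon base of mt-Te, position 31, PANDORA-seq libraries had a mismatch share of 1.25% ± 0.304 and traditional-seq libraries one of 0.476% ± 0.379 (permutation test, adjusted p = 5.1e-05), and at position 34 it was 0.357% ± 0.0315 and 0.565% ± 0.250 (permutation test, adjusted p = 0.00622), which did not pass within the AD libraries (exact permutation test, adjusted p = 0.316). The first anticodon base of mt-Tt had 0.429% and 0.418% (adjusted p = 0.939). mt-Tp could not be compared, since some traditional-seq library had fewer than 20 covering reads at each site. In PANDORA-seq, mt-Tp position 34, the m1G site, had mismatches in 0.707–1.26% of reads over all 16 libraries. A higher value, singled out after the values were seen, stood at position 32, the middle anticodon base of mt-Tp, with 4.68–9.01% (median 7.09%), nearly all G32T (98.9% of its mismatched reads).

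**Figure D4:**
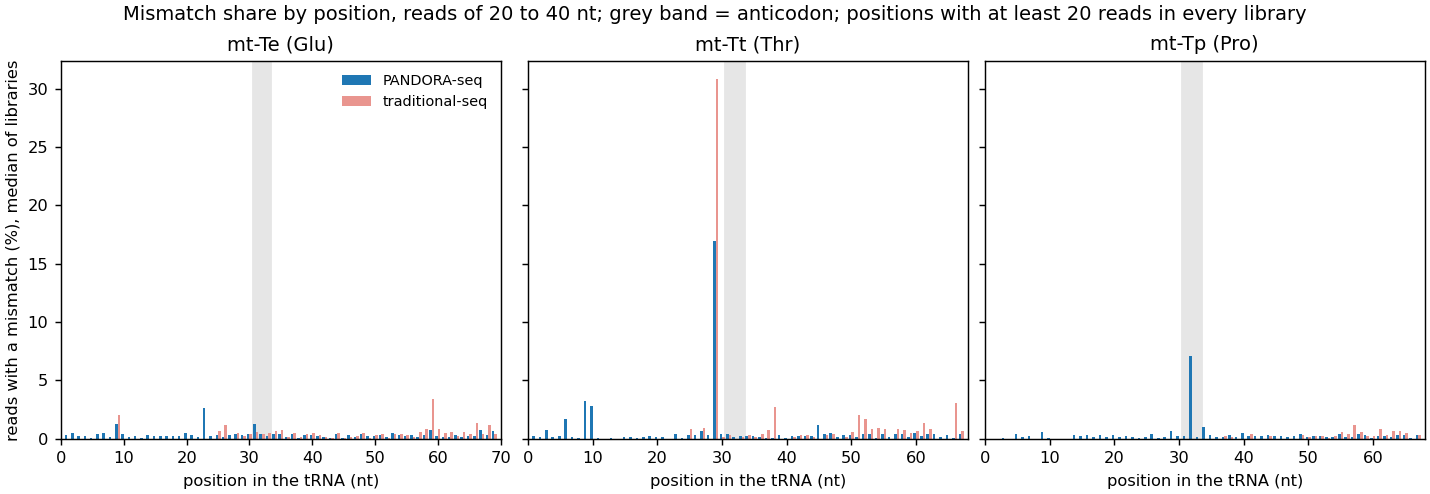
Share of reads of 20–40 nt with a mismatch at each position of the 3 tRNAs, in percent, as the median over libraries of a protocol (bars), for positions with at least 20 reads in every library of the protocol, with the anticodon as a grey band. mt-Tt position 29 is the highest bar, at 16.9% in PANDORA-seq and 30.8% in traditional-seq, and mt-Tp position 32 reaches 7.09% in PANDORA-seq.

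AD against WT mice were compared within each protocol. In RNA of whole tissue, fewer cells of a type and less RNA per cell cannot be told apart. At 15–40 nt none of the 3 tRNAs passed the test. In PANDORA-seq, mt-Te was at 760–4946 RPM (median 1343) in WT and 457–3417 RPM (median 1341) in AD libraries, mt-Tt at 25.6–64.9 RPM (median 47.9) and 24.8–85.7 RPM (median 58.3), and mt-Tp at 174–370 RPM (median 207) and 171–882 RPM (median 301). All 3 ranges overlapped, and two-sided exact permutation tests over the 12870 splits of 8 against 8 gave adjusted p = 0.914, 0.883 and 0.592 over 191 measures. The highest mt-Tp value belonged to AD replicate 1, with 387 RPM next below it. Without that library the mt-Tp means were 272 in AD and 234 RPM in WT mice (exact permutation test, adjusted p = 0.868). The fit over all RNAs with edgeR's quasi-likelihood test gave log2 fold changes, AD over WT, of -0.14 ± 0.38 (SE) for mt-Te, 0.52 ± 0.25 for mt-Tt and 0.80 ± 0.32 for mt-Tp (Benjamini-Hochberg adjusted p = 0.826, 0.137 and 0.0860). The median of the 1089 RNAs tested at these lengths was 0.43, with 7.35% called higher and 0.0918% called lower. Leaving out WT replicate 3 or AD replicate 5 took mt-Tp past the threshold by edgeR, at 0.97 (adjusted p = 0.0459) and 0.92 (adjusted p = 0.0414). Without AD replicate 1 the edgeR value fell to 0.46 (adjusted p = 0.208).

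No measure of the makeup of the 15–40-nt fragments of the 3 tRNAs passed these tests either. In PANDORA-seq, the 3′ share of mt-Te was 68.3% ± 16.7 in WT and 62.2% ± 11.8 in AD mice, that of mt-Tt 44.8% ± 10.4 and 44.0% ± 12.995, and that of mt-Tp 51.5% ± 11.6 and 43.2% ± 11.2 (SD, n = 8 each; exact permutation tests, adjusted p = 0.883, 0.994 and 0.592). The shares of 5′ and internal fragments, of reads over the anticodon and of full CCA had adjusted p between 0.581 and 0.994 (exact permutation tests). Of the 22 mitochondrial tRNAs, 4.55% had a higher 5′ share in AD mice. None of the other shares passed in any tRNA tested, which were 19 for reads over the anticodon and 18 for full CCA. Of single sequences of 15–40 nt, 614 of the 3 tRNAs were tested by edgeR and none passed the limits for a call, more than 2-fold with an adjusted p below 0.05, against 0.262% called lower and 0.195% called higher of all 19464 sequences. When single libraries were left out, 0 to 4 sequences of the 3 tRNAs were called higher. The share of all sequences called higher in those fits is not given here, so this count cannot be set against it. Of the sequences of mitochondrial tRNAs, 1.07% were called lower at these lengths. At an unadjusted p under 0.05, mt-Te had 7 of 312 sequences (5 of them higher in AD libraries), mt-Tt 2 of 64 and mt-Tp 31 of 238 (all higher), against 9.71% of all sequences of these lengths, or 8.30% counting only those higher. The mt-Tp sequences had a median log2 fold change of 0.68 with 222 above 0, and their smallest adjusted p was 0.0552 (edgeR), where the median over all sequences of these lengths was 0.22. Of the mt-Tt sequences 57 of 64 were above 0 (median 0.34), and of the mt-Te sequences 162 of 312 (median 0.02). The share of all sequences above 0 is not given here. Sequences of 1 tRNA overlap and come from the same libraries, so they are not independent.

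Fragments of 43–45 nt were lower in AD mice for mt-Te and mt-Tt. In PANDORA-seq, mt-Te was at 44.7–326 RPM (median 232) in WT and 1.26–95.6 RPM (median 14.7) in AD libraries. Only 2 AD libraries lay above the lowest WT library, and the mean fell from 214 ± 96.2 to 30.9 ± 37.6 RPM (SD, n = 8; ratio 0.144, exact two-sided permutation test with p = 0.000622, or 0.00989 after adjustment for 191 measures). mt-Tt was at 2.29–29.1 RPM (median 15.4) in WT and 0.182–5.65 RPM (median 1.22) in AD libraries. For mt-Tt, 5 AD libraries lay below every WT library, and the mean fell from 15.4 ± 11.99 to 1.89 ± 1.68 RPM (SD, n = 8; ratio 0.122, exact permutation test, p = 0.00233, adjusted p = 0.0234). Without AD replicate 1, mt-Te kept its call (exact permutation test, adjusted p = 0.0243) and mt-Tt did not (adjusted p = 0.0975), although its difference of means was -13.6 RPM without that library and -13.5 RPM with it. By edgeR mt-Tt kept its call without AD replicate 1 (-2.93 ± 0.64, adjusted p = 0.00305). mt-Tp was at 0.727–10.8 RPM (median 3.71) in WT and 0.738–10.7 RPM (median 1.5003) in AD libraries, which overlapped (ratio 0.686, exact permutation test, adjusted p = 0.898). AD replicate 1 held the highest AD value, with 4.24 RPM next below it, and without it the mt-Tp means were 1.62 in AD and 4.02 RPM in WT mice (ratio 0.403, exact permutation test, adjusted p = 0.303; edgeR -1.12 ± 0.51, adjusted p = 0.120). WT replicate 3 held the highest WT value, with 5.33 RPM next below it, and without it the edgeR value turned to 0.12 ± 0.56 (adjusted p = 0.905). By this test on all libraries 95.5% of the 22 mitochondrial tRNAs were lower in AD mice, and mt-Tp did not pass.

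Most RNAs were lower at 43–45 nt, and AD libraries had the smaller share of such reads in all, as given above. With edgeR's quasi-likelihood test, the log2 fold changes were -2.60 ± 0.63 (SE) for mt-Te, -2.87 ± 0.59 for mt-Tt and -0.35 ± 0.59 for mt-Tp (adjusted p = 0.00613, 0.00173 and 0.710). Of all 374 RNAs tested at these lengths 63.4% were called lower and 0.267% higher, with a median of -1.76, and of the 20 mitochondrial tRNAs tested 95.0%, with a median of -2.58. All 12 tested tRNAs read from the heavy-strand transcript and 7 of 8 from the light-strand transcript were called lower. The neighbours mt-Cytb, at -1.76 ± 0.39, and mt-Nd6, at -2.49 ± 0.59, were lower too (edgeR, adjusted p = 0.00297 and 0.00542), and at 15–40 nt they stood at 0.63 and 0.74 (adjusted p = 0.109 and 0.128). The RNA totals of 43–45 nt went through the filter on low counts described below for single sequences, which can favour RNAs high in WT libraries. How many of the 374 RNAs passed it in that way was not counted. mt-Te, mt-Tt and mt-Tp reached its level in every library.

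When each library was scaled by its own reads of 43–45 nt, mt-Te and mt-Tt had log2 fold changes below 0 and mt-Tp above 0. Of all 383 RNAs tested 20.4% were called lower and 20.9% higher. By edgeR on this scale, mt-Te remained lower in AD mice (-1.17 ± 0.39, adjusted p = 0.0178), mt-Tt no longer passed (-0.89 ± 0.44, adjusted p = 0.114) and mt-Tp was higher (1.56 ± 0.48, adjusted p = 0.0113). As RPM of the reads of 43–45 nt, mt-Te was at 397–2238 in WT and 59.05–1230 in AD libraries (exact permutation test, adjusted p = 0.0321). On the same scale mt-Tt was at 12.2–180 in WT and 8.56–52.9 in AD libraries (exact permutation test, adjusted p = 0.182). mt-Tp was at 5.71–66.8 in WT and 12.4–155 in AD libraries (exact permutation test, adjusted p = 0.380), so its call by edgeR was not repeated by this test.

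Single sequences of 43–45 nt are given as a description, since the filter on low counts favoured those high in WT libraries. It kept a sequence with at least 0.121 RPM in 8 of the 16 libraries. Of the sequences of the 3 tRNAs that it kept, 22 reached this level in more WT than AD libraries, 1 in more AD libraries, and 16 in at most 4 AD libraries, and of all sequences of these lengths 1793 reached it in more WT and 58 in more AD libraries. Of the 27 sequences of 43–45 nt from the 3 tRNAs that passed the filter on low counts, out of 73 found for mt-Te, 66 for mt-Tt and 70 for mt-Tp, edgeR called 20 lower, against 45.7% of all 2171 sequences of these lengths and 72.4% of those of mitochondrial tRNAs. They were 12 of 15 from mt-Te, 7 of 8 from mt-Tt and 1 of 4 from mt-Tp. Among the same 27 sequences without AD replicate 2, this count was 12 (44.4%, against 37.7% of all sequences of these lengths). Without WT replicate 3 it was 13 (48.1% against 42.4%), as it was without AD replicate 8 (48.1% against 36%). The median log2 fold change of the tested sequences of the 3 tRNAs was -1.01 at 42 nt (16 sequences), -2.03 at 43 nt (12), -3.38 at 44 nt (10) and -4.14 at 45 nt (5). These medians depend on which sequences passed the filter, and mt-Tp gave 16 of the 35 tested at 41–42 nt, with a median of 0.28, but 4 of the 27 at 43–45 nt. Over all tested sequences the medians at these lengths were -0.56, -1.21, -2.32 and -3.54, with 4.56%, 18.1%, 52.0% and 76.8% called lower. At 41–42 nt, 2 of 35 sequences of the 3 tRNAs were called lower, both from mt-Te, against 2.94% of all and 3.93% of those of mitochondrial tRNAs. Over all lengths 22 of 676 sequences of the 3 tRNAs (3.25%) were called lower, below the 4.66% of all sequences and 6.83% of those of mitochondrial tRNAs, and with unmatched sequences in the fit as well 13 of 676 (1.92%) were, against 1.88% of all. As RNA totals at 41–42 nt none of the 3 tRNAs passed by edgeR, with -0.93 ± 0.40 for mt-Te, -0.50 ± 0.43 for mt-Tt and 0.89 ± 0.65 for mt-Tp (adjusted p = 0.105, 0.424 and 0.351), where 5.38% of all RNAs and 5.26% of mitochondrial tRNAs were called lower. Leaving out single libraries moved mt-Tp from -0.30 to 1.32 and mt-Te from -1.26 to -0.73 (edgeR, adjusted p for mt-Te from 0.0212 to 0.266).

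A set of mt-Te fragments shared one 3′ end and differed only in where they started, and so in length. The set was chosen after the values were seen, and 3 of its members are printed with the anticodon and tail bases in capitals.
mt-Te 27–71: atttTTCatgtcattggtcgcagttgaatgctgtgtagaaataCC
mt-Te 29–71: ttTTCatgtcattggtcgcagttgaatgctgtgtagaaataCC
mt-Te 34–71: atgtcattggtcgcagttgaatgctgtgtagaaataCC
The 45-nt fragment 27–71 was at 13.1–87.0 RPM (median 61.7) in WT and 0.218–14.5 RPM (median 1.07) in AD libraries, a log2 fold change of -4.51 ± 0.73 (edgeR, adjusted p = 0.000464). Started 1 base later, at position 28, the fragment changed by -2.82 ± 0.78 (edgeR, adjusted p = 0.0382). The 43-nt fragment 29–71, the most abundant of 43–45 nt, was at 13.5–107 RPM (median 55.1) in WT and 0.328–43.2 RPM (median 8.19) in AD libraries and did not pass (-2.03 ± 0.62, adjusted p = 0.0689). Starts at positions 30, 31, 32 and 33 gave -1.31, -1.07, -0.73 and -0.74, and the 38-nt fragment 34–71 gave -0.36 ± 0.56 (edgeR, adjusted p = 0.814). Shorter fragments with starts at positions 35–40 gave values from -0.68 to 0.09, none past the threshold (edgeR, adjusted p from 0.604 to 0.945). Over all tested sequences the medians from 45 down to 38 nt were -3.54, -2.32, -1.21, -0.56, -0.21, 0.0009, 0.12 and 0.15. Start and length change together in this set, and their parts were not tested. The 43–45-nt fragments with starts at 27, 28 and 29 reached the level of the filter in 8 of 8 WT and 8 of 8 AD libraries. The called mt-Te sequence of positions 24–67 was at 0.227–0.956 RPM in WT and 0–0.146 RPM in AD libraries and reached it in 8 WT but 1 AD library, so no test of it is given.

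Position 1 was the commonest start of the 43–45-nt fragments of mt-Tt, and those of mt-Tp started mostly inside the tRNA. A called sequence of mt-Tt and the called one of mt-Tp are printed as they show such ends, followed by mt-Tp 13–55, which was not called and was chosen after the values were seen for the commonest ends in AD libraries, with anticodon and tail bases in capitals.
mt-Tt 1–45: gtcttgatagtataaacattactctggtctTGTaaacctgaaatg
mt-Tp 26–69: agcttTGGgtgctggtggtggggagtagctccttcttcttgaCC
mt-Tp 13–55: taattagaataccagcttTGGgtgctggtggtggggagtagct
Among mt-Tt reads of 43–45 nt, 47.1% started at position 1 in WT and 50.8% in AD libraries. mt-Tt 1–45 was at 0.0980–6.35 RPM (median 1.97) in WT and 0.0182–0.449 RPM (median 0.0900) in AD libraries and reached the level of the filter in 6 WT and 3 AD libraries. The most abundant by its mean over the 16 libraries, mt-Tt 1–44, was at 0.174–9.78 RPM in WT and 0–1.70 RPM in AD libraries. It reached that level in 8 WT and 4 AD libraries. mt-Tp 26–69, a 3′ fragment, was at 0.172–2.94 RPM (median 0.936) in WT and 0.0121–0.874 RPM (median 0.0667) in AD libraries and reached it in 8 WT and 2 AD libraries. These sequences entered the fit mainly through the WT libraries, where they were high, so their levels are a description and no test of them is given. The internal fragment mt-Tp 13–55 was at 0.0493–1.08 RPM (median 0.329) in WT and 0.0121–3.13 RPM (median 0.221) in AD libraries (0.51 ± 0.75, edgeR, adjusted p = 0.803). Of all mt-Tp reads of 43–45 nt, 42.1% started at position 26 in WT and 13.5% in AD libraries, and 14.9% and 26.5% started at position 13. These are shares of the summed RPM of a group, of which AD replicate 1 held 48.6% among AD libraries, and without it 17.4% of AD reads started at position 26 and 17.9% at position 13. WT replicate 3 held 33.6% among WT libraries, and without it the WT shares were 40.9% and 15.8%. The difference between the groups was not tested.

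**Figure D5:**
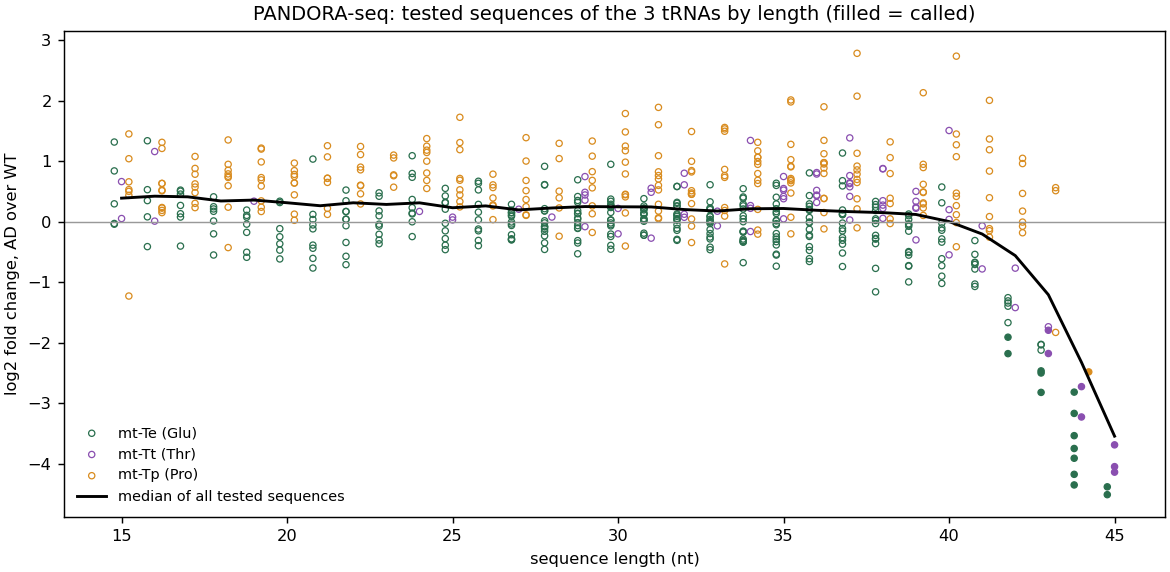
Log2 fold change, AD over WT, of each tested sequence of the 3 tRNAs in PANDORA-seq against its length in nt, with filled points for called sequences and a black line for the median of all tested sequences. The line and the points of mt-Te and mt-Tt lie lower at 43–45 nt, with medians of -3.54 for all sequences and -4.14 for those of the 3 tRNAs at 45 nt, whereas mt-Tp points lie mostly above 0 up to 42 nt and 2 of its 3 points at 43 nt do too, at 0.51 and 0.56.

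In traditional-seq no difference between AD and WT mice passed a test for these tRNAs. mt-Te at 15–40 nt was at 542–1865 RPM (median 1504) in WT and 978–1600 RPM (median 1298) in AD libraries, mt-Tt at 44.2–111 RPM (median 75.8) and 36.5–92.6 RPM (median 73.1), and mt-Tp at 29.8–100.2 RPM (median 58.5) and 31.4–89.8 RPM (median 53.8). The ranges overlapped, and exact permutation tests over the 3432 splits of 7 against 7 had unadjusted p = 0.8502, 0.326 and 0.303. The edgeR log2 fold changes were -0.01 ± 0.28, -0.29 ± 0.30 and -0.38 ± 0.32 (adjusted p = 0.998 each), and 0 of the 700 RNA totals and 0 of the 156 tested sequences of the 3 tRNAs were called, with 1 of those sequences at an unadjusted p under 0.05. Of all 4866 sequences of 15–40 nt, 0 were called and 0.575% were at an unadjusted p under 0.05. DESeq2 also called 0 sequences of the 3 tRNAs. The genotype effect at 15–40 nt in PANDORA-seq minus that in traditional-seq was -0.45 ± 0.47 for mt-Te, 0.42 ± 0.38 for mt-Tt and 0.81 ± 0.48 for mt-Tp (edgeR interaction test, unadjusted p = 0.337, 0.278 and 0.101), and 0 of 1219 RNAs passed.

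Across libraries, levels at 15–40 nt followed different tRNAs in each protocol, given as a description since values of a library share its depth and size selection. Over the 16 PANDORA-seq libraries mt-Te was most like mt-Ts2 (Spearman's rho 0.947) and mt-Tt most like mt-Tv (0.90), whereas the highest rho of mt-Tp was 0.165, with mt-Tn. Over the 14 traditional-seq libraries the nearest were mt-Tq for mt-Te (0.846), mt-Tw for mt-Tt (0.930) and mt-Tm for mt-Tp (0.886). Between mt-Te and mt-Tp, rho stood at -0.371 with PANDORA-seq and at 0.640 with traditional-seq.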

How the data were processed

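Small RNA of mouse cortex was measured in 30 libraries, grouped by protocol and genotype as labelled, and the submitters call them biological replicates. The authors deposited adapter-trimmed sequences with their read counts, 1 table per library, not normalized or pooled and with sequences of 1 read included. Their processing notes name the build mm39, but the files hold no coordinates. Per the labels the RNA was 15–50 nt long. The trimming tool and its version are not given in the sources used here.

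Whole sequences were matched here, exactly and in sense, to 6125 small or mitochondrial transcripts of GENCODE vM21 (GRCm38), with CCA added to the mitochondrial tRNAs, and reads of mt-Te, mt-Tt and mt-Tp were summed by start, end and length. RPM is reads per 1000000 reads of a library. Depth was 54926347–105876141 reads in PANDORA-seq and 9370669–17053412 in traditional-seq, and reads carry no molecular identifiers, so p-values rest on the spread between libraries.

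Distinct sequences and RNA totals by length class (15–40, 41–42 and 43–45 nt) were fitted over the whole reference with edgeR 4.0.16 (R 4.3.3): TMM, filterByExpr (smallest count 10, smallest total 15), quasi-likelihood test, Benjamini-Hochberg adjustment. Sequences were called when they changed more than 2-fold with an adjusted p below 0.05, RNA totals at an adjusted p under 0.05. TMM scaling set the median log2 fold change of all PANDORA-seq RNA totals at 0.19, against -0.06 with library size alone. Single measures were compared by two-sided exact permutation tests of the difference of means between genotypes (smallest p 0.000155 for 8 against 8 and 0.000583 for 7 against 7), and by 100000 shuffles between protocols, which treat all 30 libraries as independent. Python 3.11.15, scipy 1.17.1, DESeq2 1.42.0 (alternative) and matplotlib 3.10.9 were used, and the programs were tested on simulated data.

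The members, lists and tests were chosen with earlier results of these data known. Named RNAs are the 3 tRNAs, mt-Nd6, mt-Cytb and the tRNA most alike in level. Named sequences are, per tRNA and protocol, the most abundant of each fragment type, the most abundant of 43–45 nt and the called one with the smallest adjusted p. The alternatives were another test, tool, scaling, filter, length window, reference, denominator, scale, fragment rule, the replicate number as a block and each library left out. The omission of PANDORA-seq AD replicate 1 from the permutation tests was added after the data were seen.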

Additional observations from a re-analysis of the deposited data

Results flagged for a closer look

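Values of single libraries that stood apart from the rest of their group by Dixon's test were found in 9 of 66 groups examined. Chance gives about 1 in 20 for independent, normally spread values. The RPM values and shares examined come from the same libraries and need not be spread in this way, so the count is not read against that rate. For mt-Tp, PANDORA-seq libraries recurred. WT replicate 3 had 370 RPM of mt-Tp at 15–40 nt (next 267) and 10.8 RPM at 43–45 nt (next 5.33), and AD replicate 1 had 882 RPM at 15–40 nt (next 387) and 10.7 RPM at 43–45 nt (next 4.24). Traditional-seq AD replicate 7 had 89.8 RPM of mt-Tp at 15–40 nt (next 56.6). For mt-Tt, PANDORA-seq AD replicate 6 had 5.65 RPM at 43–45 nt (next 2.37), and traditional-seq AD replicate 2 had a 3′ share of 26.8% (next 10.8%). The full-CCA share of mt-Te 3′ reads was 0.409% in PANDORA-seq WT replicate 3 (next 0.198%) and 31.98% in traditional-seq AD replicate 2 (next 13.9%). What set these libraries apart was not tested.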

How the results depend on the processing

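With alternatives other than a left-out library, the main results were unchanged in 143 comparisons, turned in 8, were stronger in 3 and weaker in 10. Unchanged meant the same direction and side of the threshold, or for counts of called sequences a count near the main one. Stronger or weaker meant a call gained or lost, or a clearly larger or smaller count. With library size alone 14 sequences of the 3 tRNAs were called lower at 43–45 nt (51.9%, against 41.2% of all), which was taken as unchanged. Of the PANDORA-seq sequences of the 3 tRNAs, 22 were called in all and 20 at 43–45 nt. Without filterByExpr these counts were 54 and 47, with 49 of 1681 called lower in all (2.91%, against 2.75% of all sequences in that fit) and 47 of 119 at 43–45 nt (39.5% against 25.2%). The rest of the 54 were called higher, and the share of all sequences called higher in that fit is not given here. With all sequences in the fit, matched or not, the counts were 13 and 12 (at 43–45 nt 44.4% against 19.7%). The count in all was 0 with 15–40 nt fitted alone, which leaves out the longer sequences. Each library was also left out among the sequences that had passed the filter with all libraries, so these fits do not test that filter. The counts were then 13 to 24 in all and 12 to 21 at 43–45 nt. At 43–45 nt there were 12 without AD replicate 2 and 13 without AD replicate 8 or WT replicate 3. In these fits 1.92% to 3.55% of the sequences of the 3 tRNAs were called lower in all, against 3.65% to 5.55% of all sequences. At 43–45 nt these shares were 44.4% to 77.8% against 36% to 54.6%. At 15–40 nt 0 to 4 sequences of the 3 tRNAs were called higher, without a share of all sequences to set this against.

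For RNA totals by edgeR, scaling by the reads of the length class turned mt-Tp at 43–45 nt to 1.56 and left mt-Tt at -0.89 short of the threshold. Leaving out each library moved the PANDORA-seq log2 fold changes at 15–40 nt from -0.352 to 0.0231 (mt-Te) and 0.46 to 0.97 (mt-Tp), at 41–42 nt from -0.30 to 1.32 (mt-Tp) and at 43–45 nt from -3.07 to -2.43 (mt-Te), -3.27 to -2.60 (mt-Tt) and -1.12 to 0.12 (mt-Tp). The lowest mt-Tp values at 15–40 and 43–45 nt came without AD replicate 1 and the highest without WT replicate 3, and mt-Tp at 15–40 nt passed without WT replicate 3 (adjusted p = 0.0459) and without AD replicate 5 (0.92, adjusted p = 0.0414). In traditional-seq, mt-Te at 15–40 nt, at -0.01, ranged from -0.0669 to 0.112 when a library was left out, and was 0.0345 with DESeq2, 0.0543 without filterByExpr, 0.0529 without ambiguous sequences and 0.0479 scaled by the length class.

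For levels by permutation test, the 43–45-nt difference as RPM of the reads of the class was -64.2 for mt-Tt (not past the threshold) and 25.6 for mt-Tp (turned). Without AD replicate 1, mt-Tt at 43–45 nt was -13.6 RPM and no longer passed, and small differences turned: mt-Tp at 41–42 nt -4.08 RPM, mt-Tt 3′ share 1.56 and internal share -1.37, mt-Te share over the anticodon -1.04 and full CCA -0.0113, mt-Tp full CCA 0.00821. In traditional-seq, log2(RPM + 1) turned mt-Te at 15–40 nt to 0.0734 and over all lengths to 0.0711 and mt-Tt at 41–42 nt to -0.000994, and fragment ends within 3 nt turned the mt-Te 3′ share to 3.56 and its internal share to -3.40. Between protocols, as RPM of the reads of 15–40 nt mt-Te passed at 1012 and mt-Tt did not at -12.5, and within AD mt-Tt was -11.1. Mismatch shares turned for mt-Te position 29 within WT (0.112) and for mt-Tt position 31 within AD (-0.0539) and in reads of 25–40 nt (-0.209), and mt-Tt position 29 within WT was -12.2. The causes were not tested.

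Libraries with the same replicate number were not treated as pairs, since the correlation of their deviations ran from -0.474 to 0.293 in PANDORA-seq, where 0 of 8 were most like their own number, and from -0.446 to 0.476 in traditional-seq, with 1 of 7. With the replicate number as a block, 21 PANDORA-seq sequences were called in all (3.11%, against 5.06% of all sequences) and 18 at 43–45 nt (66.7% against 50.7%), 4 of them from mt-Tt, and edgeR gave -3.37 for mt-Te, -2.70 for mt-Tt (both still called) and -0.51 for mt-Tp at 43–45 nt. In permutation tests within replicate numbers, the 43–45-nt differences of mt-Te (-183.0 RPM, adjusted p = 0.0995) and mt-Tt (-13.5 RPM, adjusted p = 0.172) did not pass. For mt-Te the p was 0.00781, the smallest that 8 pairs allow, and mt-Tt did not reach it. Traditional-seq mt-Te at 15–40 nt was 0.0479 by edgeR.

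Reads were fewer in traditional-seq, with both a smaller depth and a lower mt-Tp level: mt-Tp had 399–1426 reads of 15–40 nt in a library there and 9646–53470 in PANDORA-seq, and 11 of its traditional-seq sequences could be tested against 238.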
